A study of Mus musculus with 28 samples.

Results

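The respiratory chain and ATP synthase were examined through 102 protein-coding genes of the 25719 genes counted in mouse tail tendon, 13 encoded by the mitochondrial genome and 89 by the nuclear genome. The members were taken by symbol alone: the Nduf subunits of complex I together with mt-Nd genes, the Sdh subunits of complex II, the Uqcr subunits and mt-Cytb of complex III, the Cox subunits 4 to 8 and mt-Co genes of complex IV, and the Atp5 and mt-Atp subunits of complex V. Complex I held 46 members, complex II 4, complex III 9, complex IV 22 and complex V 21. Bulk RNA-sequencing covered 28 libraries of tail tendon fascicles, each from 1 C57BL/6 mouse: 7 WT and 8 Fosl-2(Tg) males in the early cohort (6 to 8 weeks of age), and in the established cohort (over 14 weeks) 6 WT and 7 Fosl-2(Tg) animals, with 1 male in each genotype and females otherwise. Fosl-2(Tg) mice carry murine Fosl2 behind the H2Kb promoter, an MHC class I promoter that is active in most tissues, together with eGFP, and WT mice are non-transgenic. Stage, age and sex changed together between the cohorts and cannot be told apart. Levels are given in CPM (reads scaled to a common library size, with TMM factors over all libraries). Fosl2 itself had a median of 75.8 CPM in early WT, 87.1 in early Tg, 105 in established WT and 145 in established Tg. Its ranges overlapped in both cohorts. The log2 fold change of Fosl2 was 0.20 ± 0.24 (edgeR, adjusted p = 0.918) early and 0.38 ± 0.15 (edgeR, adjusted p = 0.141) established. Fosl2 RNA was thus not called in either cohort, and the transgene was not counted apart from the endogenous gene. Differences between genotypes are log2 fold changes of Tg over WT from edgeR's quasi-likelihood test, each followed by its SE, with p adjusted by Benjamini-Hochberg over every gene in the fit, and a gene is called at an adjusted p of at most 0.05.

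Complexes I to IV, in the inner mitochondrial membrane, pass electrons from NADH and succinate to oxygen, and complex V uses the proton gradient that results to make ATP. A few core subunits are written in the mitochondrial genome and translated inside the organelle, whereas the remaining subunits are nuclear, made in the cytosol and imported, so both genomes supply parts to complexes I, III, IV and V, and complex II is nuclear throughout. Tendon is a sparsely vascularised tissue of collagen-producing fibroblasts with modest oxidative capacity, while skeletal muscle is rich in mitochondria and carries its own isoforms of some complex IV subunits.

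Library totals ran from 9645600 to 66894400 counts. Muscle RNA varied widely among mice: Ckm, the muscle creatine kinase, ranged from 3.78 to 1457 CPM, and Acta1, skeletal muscle actin, from 8.11 to 3199 CPM. A muscle score, the mean log2 CPM of Ckm and Acta1 in a library, had a median of 6.93 in early WT, 9.03 in early Tg, 7.48 in established WT and 5.96 in established Tg. The genotypes differed in this score by 1.78 log2 units early (exact permutation test, two-sided, p = 0.129) and by -1.18 established (exact permutation test, p = 0.474), with overlap in both cohorts. The established difference ran from -2.05 (without WT replicate 4) to -0.37 (without WT replicate 5) when single libraries were left out, and the early one from 1.16 (without WT replicate 2) to 2.30 (without WT replicate 4). All 18 skeletal muscle markers were above 1 CPM in at least 1 library, and their summed level had a median of 4538 CPM in early WT, 16301 in early Tg, 8360 in established WT and 1366 in established Tg, with a range in the established cohort of 270 to 62360 CPM in WT and 182 to 18158 in Tg. Established WT replicates 5 and 6 and established Tg replicate 5 had the highest scores of their cohort (11.3, 10.9 and 9.49). The medians over nuclear and mitochondrial members, the counts of calls and some single genes are also given without them. The medians by complex and most single genes are given only with them. The 8 tendon markers had a median summed level of 215981 CPM in early WT, 421613 in early Tg, 149297 in established WT and 29012 in established Tg, where they ran from 3526 to 74654 CPM against 91639 to 185180 in established WT, and 4 of 8 were called lower in established Tg. The part of this in the subunit levels was not tested. The defining fat markers were close to absent, Ucp1 reaching at most 0.0722 CPM and Adipoq 0.809 CPM. Fewer cells of a type and less RNA per cell cannot be told apart in bulk tissue.

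The 13 mitochondrial genes fell into 2 ranges of level, and the sequences are shown because the genes of the lower range have letter-for-letter copies elsewhere. The nuclear genome holds a copy of a large stretch of the mitochondrial genome on chr1:24650616-24655269 (GRCm39, minus strand), 4654 bases that match chrM:6390-11042 with 99.9% identity and 2 mismatched bases. The first 120 bases of mt-Co2, a core subunit of complex IV, occur there letter for letter. For those of mt-Co1, the catalytic subunit, the longest nuclear match that covers them lies on another chromosome. It differs at 3 positions, shown in capitals, and a closer copy was not sought.
mt-Co2, chrM:7013-7132, plus strand: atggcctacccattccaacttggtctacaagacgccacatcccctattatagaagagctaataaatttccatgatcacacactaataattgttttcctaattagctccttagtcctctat
nuclear copy of mt-Co2, chr1:24654527-24654646, minus strand: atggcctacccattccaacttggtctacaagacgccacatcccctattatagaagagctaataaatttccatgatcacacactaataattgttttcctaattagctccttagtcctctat
mt-Co1, chrM:5328-5447, plus strand: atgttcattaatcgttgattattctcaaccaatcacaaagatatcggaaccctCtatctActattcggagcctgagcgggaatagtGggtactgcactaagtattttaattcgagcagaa
nuclear copy of mt-Co1, chr2:22479540-22479659, minus strand: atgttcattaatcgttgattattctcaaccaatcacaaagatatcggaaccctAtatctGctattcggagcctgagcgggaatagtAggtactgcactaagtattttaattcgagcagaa

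Of all 150-base windows along each gene, 100% recurred letter for letter in the nuclear genome for mt-Co2, mt-Atp8, mt-Atp6, mt-Co3 and mt-Nd4l and 98.5% for mt-Nd3. The share was 59.2% for mt-Nd4, 23.6% for mt-Co1 and 0% for mt-Nd1, mt-Nd2, mt-Nd5, mt-Nd6 and mt-Cytb. The 6 genes with a full nuclear copy had median levels of 18.3 (mt-Nd3) to 41.7 (mt-Atp8) CPM per kb over the 28 libraries, and the other 7 had 319 (mt-Nd4) to 3130 (mt-Co1) CPM per kb. No library of one set reached the range of the other: the highest level among the 6 was 84.5 CPM per kb (mt-Atp8) and the lowest among the 7 was 99.6 (mt-Nd4). How reads that align to 2 places were counted is not given in the sources used here, and its part in these levels was not tested. The low counts of the 6 genes, a median of 93.5 reads for mt-Nd4l and 108.5 for mt-Nd3 against 94960 for mt-Co1, leave their fold changes less precise. Overlaps also touch these genes: mt-Atp8 overlaps mt-Atp6, mt-Nd4l overlaps mt-Nd4, and mt-Nd6 lies on the opposite strand, so that without strand its reads cannot be told from antisense RNA.

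**Figure D1:**
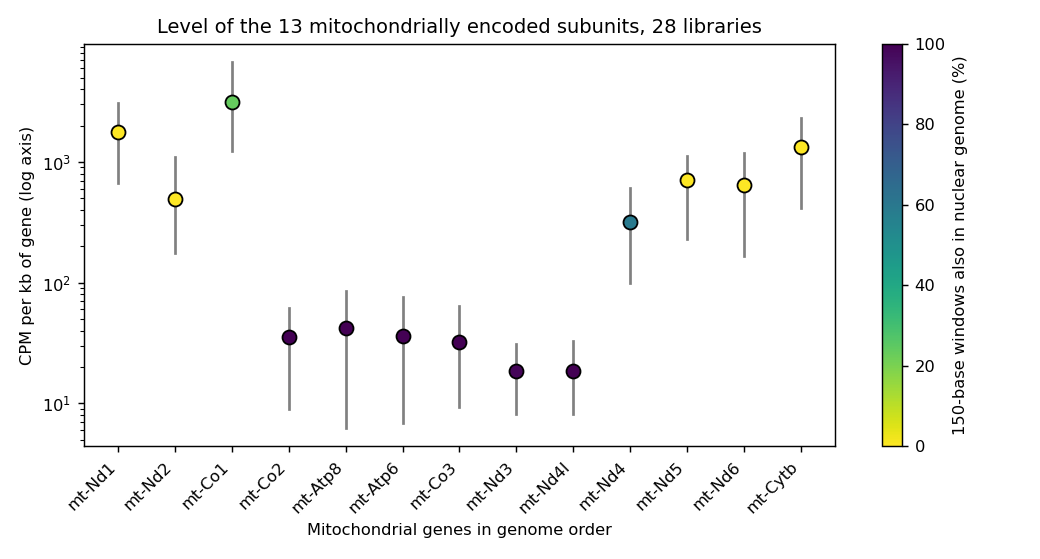
Level of each mitochondrially encoded subunit in CPM per kb of gene (log axis), in the order of the genes along the mitochondrial genome; points are medians and lines the full range over 28 libraries, and colour gives the percentage of 150-base windows found letter for letter in the nuclear genome. The 6 dark points from mt-Co2 to mt-Nd4l sit between 18.3 and 41.7, below the other 7 at 319 to 3130.

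Among nuclear members the median level per kb of the principal transcript was 141 CPM per kb for Ndufa4l2, a hypoxia-inducible relative of Ndufa4, 137 for Cox4i1, the ubiquitous form of subunit 4 of complex IV, 118 for Atp5f1b and 91.2 for Atp5f1a, the catalytic beta and the alpha subunit of ATP synthase. Core subunits of the upstream complexes were lower, at 27.6 CPM per kb for Sdha, the flavoprotein of complex II, and 13.1 for Ndufs1, an iron-sulfur subunit of complex I. Cox4i2, the hypoxia-responsive partner of Cox4i1, had a median of 1.96 CPM per kb. Ndufb11b, Cox5b-ps, Cox7b2 and Cox8c did not pass the filter on low counts in either cohort, nor Cox6b2, a testis form, in the early cohort. Of these, Cox8c held 1 read in all, in an early Tg library. Thus 97 members were tested early and 98 established. Atp5po has 2 overlapping gene records that share reads, and its values are uncertain to that extent.

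In established Fosl-2(Tg) tendon the log2 fold change over WT was negative for nearly every subunit and further below 0 for mitochondrial than for nuclear genes, but no single member was called. Of 98 members, 96 had a negative log2 fold change, and the median over members was -0.42 beside 0.01 over all 15862 genes tested. The median was -0.88 for the 13 mitochondrial members, all 13 of which were negative, and -0.40 for the 85 nuclear members, of which 83 were negative. By edgeR's quasi-likelihood test 0 members were called at an adjusted p of at most 0.05, against 6.51% of all genes. At an unadjusted p under 0.05, 28 members were lower (12 mitochondrial and 16 nuclear), where 13.1% of all genes were, and 1 member was higher. DESeq2 called 11 of 101 members, 10 of them mitochondrial, where it called 11.7% of all genes. Limma voom with quality weights called 2 of 98 against 12.5% of all genes, and edgeR with all 28 libraries in 1 fit called 11, all mitochondrial, against 10.3%. Over both genomes together, none of these shares of called members lies clearly above that of all genes. Of the 13 mitochondrial members alone, DESeq2 called 10, the fit of all 28 libraries 11, limma voom 2 and the main fit 0. In no member did the genotypes fail to overlap, while 2.27% of all genes were lower in every Tg than in every WT library.

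The sign of some nuclear members changed with the scaling, and the size of their shift with the muscle-rich libraries. With library totals alone the median of all genes was 0.33, 33 of 98 members became positive, all of them nuclear, and the median over members was -0.10. Relative to the median of all genes that is -0.43, as it was with TMM (-0.43), and for nuclear members alone -0.41 under both scalings. A change of scaling shifts all genes by about the same amount, so these equal values were fixed in advance and test nothing. Without the 3 libraries of highest muscle score the median was -0.05 for nuclear and -0.50 for mitochondrial members, with 28 nuclear members and no mitochondrial member positive. With the muscle score as a covariate the medians were -0.18 and -0.63. With limma voom they were -0.14 and -0.60. No call was gained or lost by the covariate or by leaving out the 3 libraries, since 0 members were called in each.

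By complex, the median log2 fold change in the established cohort for nuclear members was -0.40 in complex I, -0.36 in complex II, -0.49 in complex III, -0.42 in complex IV and -0.41 in complex V. The mitochondrial members of complexes I, IV and V had medians of -0.88, -0.79 and -1.01, and mt-Cytb, the only one of complex III, had -0.92. All 4 mitochondrial values lay below those of the nuclear members.

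**Figure D2:**
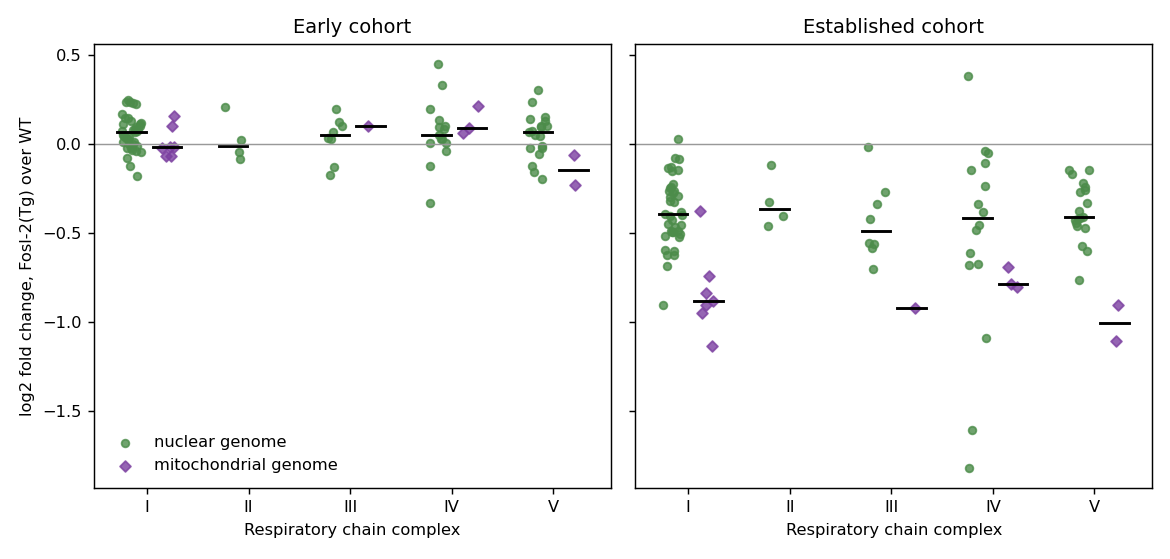
Log2 fold change of Fosl-2(Tg) over WT for each tested member by complex, early cohort on the left and established cohort on the right; circles are nuclear and diamonds mitochondrial members, and bars are medians. Early values scatter around 0, while the established mitochondrial members lie between -1.14 and -0.37.

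The mitochondrial subunits of complex I included the member of lowest p. mt-Nd6 had 143, 352 and 610 CPM (lowest, median and highest) in established WT and 85.3, 167 and 239 in established Tg, so that most Tg mice lay below most WT mice with overlap at the low end of WT. Its log2 fold change was -1.14 ± 0.33 (adjusted p = 0.0543). mt-Nd5 ranged from 609 to 2054 CPM in WT (median 1367) and from 418 to 915 in Tg (median 719), a log2 fold change of -0.90 ± 0.27 (adjusted p = 0.062). WT replicates 3 and 4 lay inside the Tg range, and the other 4 WT mice above it. mt-Nd1, mt-Nd2 and mt-Nd4 gave -0.84, -0.88 and -0.95, and mt-Nd3 and mt-Nd4l, with a full nuclear copy, -0.37 and -0.74.

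In complex IV, mt-Co1, which holds the oxygen-reducing site, had 3373, 5097 and 9297 CPM in WT and 1915, 3378 and 3863 CPM in Tg, a log2 fold change of -0.80 ± 0.24 (adjusted p = 0.0632). mt-Cytb, the cytochrome b of complex III, had 758, 1481 and 2663 CPM in WT and 473, 946 and 983 in Tg (-0.92 ± 0.28, adjusted p = 0.0677). The highest Tg library of either gene lay below the WT median. mt-Co2 and mt-Co3 gave -0.79 and -0.69, and mt-Atp6 and mt-Atp8 of complex V -0.91 and -1.11. All 13 mitochondrial members were negative in every alternative run for the established cohort, leaving out single libraries included, and the median over the 13 lay between -1.05 and -0.50.

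**Figure D3:**
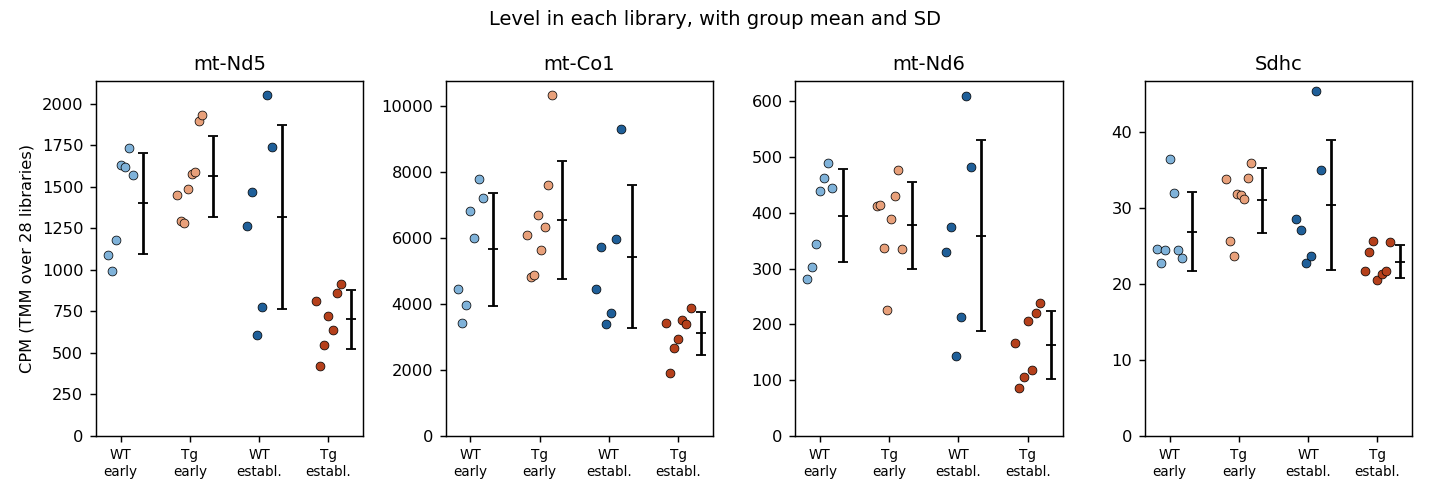
CPM of mt-Nd5, mt-Co1, mt-Nd6 and Sdhc in each of the 28 libraries by group; points are mice and the bar beside each group is the mean with its SD. Early genotypes overlap throughout, and established Tg mice cluster at the lower end of the WT range (mt-Nd5 418 to 915 against 609 to 2054 CPM).

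Summed over the 13 genes, mitochondrial subunits took 0.669% to 2.10% of all counts in established WT (median 1.15%) and 0.536% to 1.05% in established Tg (median 0.912%). The nuclear members took a median of 0.249% in established WT and 0.302% in established Tg, the opposite order, but a mean of 0.326% and 0.319%. With TMM scaling their summed level had a median of 2373 CPM in established WT and 2275 in established Tg. In the early cohort the mitochondrial shares were 0.812% to 1.70% in WT and 0.775% to 1.66% in Tg. The ratio of summed mitochondrial to summed nuclear subunit CPM does not depend on scaling: its median was 3.81 in early WT, 3.97 in early Tg, 3.75 in established WT and 2.77 in established Tg, with established ranges of 2.86 to 5.27 in WT and 1.77 to 3.56 in Tg. These sums over members carry no test. Established Tg replicates 2, 3 and 5 had the lowest ratios of all 28 libraries (1.77, 2.21 and 2.22), and only the last of them had a high muscle score. Macrophage markers moved in the other direction in this cohort, from a median summed level of 468 CPM in WT to 613 in Tg, with 1 of 5 called higher, and erythroid markers from 10.1 to 17.3 CPM with none called. Their part in the subunit levels was not tested.

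Nuclear subunits showed smaller differences. Sdhc, a membrane anchor of complex II, had 22.8, 27.8 and 45.4 CPM in WT and 20.4, 21.7 and 25.6 in Tg (-0.40 ± 0.15, adjusted p = 0.103). Ndufv3, an accessory subunit of complex I, gave -0.42 ± 0.15 (adjusted p = 0.0942) and Ndufa1, a small X-linked subunit of the same complex, -0.68 ± 0.24 (adjusted p = 0.0977). In complex III, Uqcrc1, a core subunit, gave -0.42 ± 0.18 (adjusted p = 0.159), and in complex V Atp5f1d, the delta subunit, -0.47 ± 0.19 (adjusted p = 0.128). Values of several core subunits were nearer to 0: Ndufs1 -0.08 ± 0.17, Ndufv1 -0.08 ± 0.20, Sdha -0.12 ± 0.14 and Uqcrfs1, the Rieske protein, -0.27 ± 0.24, and these 4 turned positive without the 3 muscle-rich libraries and with library totals alone. Sdhb, Cox5a, Atp5f1a and Atp5f1b gave -0.46, -0.61, -0.41 and -0.43, with adjusted p between 0.18 and 0.269. The nuclear members farthest from 0 were the muscle isoforms Cox6a2 (-1.82 ± 1.36, adjusted p = 0.404), Cox8b (-1.61 ± 1.03, adjusted p = 0.330) and Cox7a1 (-1.09 ± 0.51, adjusted p = 0.194).

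A single member was higher at an unadjusted p under 0.05. Cox7a2l, which helps join complexes III and IV into supercomplexes, had 52.1, 62.6 and 80.8 CPM in established WT and 61.6, 78.7 and 104 in established Tg, a log2 fold change of 0.38 ± 0.13 (edgeR, adjusted p = 0.0946). It stayed positive without the 3 muscle-rich libraries (0.37) and with the muscle score as covariate (0.39), and had 0.71 (adjusted p = 0.00357) with library totals alone, a setting in which 47.6% of all genes were called and their median was 0.33. Its muscle slope was 0.00 ± 0.02 per unit of score, which is explained with the muscle slopes.

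In the early cohort no member was called. By edgeR's quasi-likelihood test 0 of 97 members were called, where 0.0396% of all genes were, and 0 had an unadjusted p under 0.05. DESeq2 and limma voom also called 0. The median over members was 0.05, against -0.01 over all genes, with 67 positive and 30 negative. It turned to -0.10 with the muscle score as covariate and to -0.11 with library totals alone, under which all genes had a median of -0.19. The lowest p belonged to Ndufa10 in complex I (0.24 ± 0.12, adjusted p = 0.834), to Cox4i1 in complex IV (0.14 ± 0.08), to Sdhc in complex II (0.21 ± 0.12), to Uqcrq in complex III (0.20 ± 0.17) and to Atp5f1b in complex V (0.24 ± 0.16). The mitochondrial members ranged from -0.23 (mt-Atp8) to 0.21 (mt-Co1). mt-Nd5 had 993, 1567 and 1733 CPM in WT and 1279, 1530 and 1932 CPM in Tg, and mt-Co1 3404, 5996 and 7770 CPM in WT and 4799, 6207 and 10334 in Tg, with broad overlap.

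Whether the genotype difference itself changed between cohorts was tested by the interaction of genotype and stage over all 28 libraries. The interaction was negative for 93 of 98 members, with a median of -0.52 beside 0.02 for all genes, and 2 members were called, against 7.43% of all genes. These were mt-Nd5 (-1.07 ± 0.30, adjusted p = 0.0338) and Sdhc (-0.61 ± 0.19, adjusted p = 0.0457). mt-Co1, mt-Co2, mt-Nd1 and mt-Cytb followed at -1.02, -0.85, -0.94 and -1.02, with adjusted p between 0.0513 and 0.0586. Both calls were lost with the muscle score as covariate (mt-Nd5 -0.64, adjusted p = 0.117, and Sdhc -0.35, adjusted p = 0.112), without the 3 muscle-rich libraries (-0.69 and -0.35, adjusted p = 0.192 and 0.259) and without the 2 established males (-0.89 and -0.46, adjusted p = 0.0908 and 0.135). With a replicate block, a term for the replicate numbers of both cohorts, 5 of 98 members were called, against 12.4% of all genes. Of the 5, 3 were mitochondrial, and Sdhc was not among them (-0.58, adjusted p = 0.0572). Leaving out single libraries gave between 0 calls (for example without established WT replicate 5 or 6) and 9 (without established WT replicate 3, with 7.24% of all genes called). Sdhc lost its call in 20 of the 28 single omissions and mt-Nd5 in 7, and Sdhc also lost it with no filter on low counts (adjusted p = 0.0591) and with limma voom (adjusted p = 0.0952). A share of 2 in 98 lies below the share of all genes called.

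How far each subunit followed muscle RNA was estimated as the slope of log2 level on the muscle score, within a cohort and with genotype in the fit. Slopes were positive for 93 of 97 members early and 95 of 98 established, with medians of 0.08 and 0.12 log2 CPM per unit of score, where the medians over all genes were 0.00 in both. Positive slopes were called for 24 of 97 members early, against 4.38% of all genes, and for 61 of 98 established, against 5.67% of all genes, and no negative slope was called. Of the 24 members, 87.5% were also among the 61, and 34.4% of the 61 among the 24. The main fit did not use replicate numbers, which the replicate block, an alternative fit, treated as pairing the early libraries. With the replicate block 5 early calls were left, Cox6a2, Cox8b, Cox7a1, Atp5mc1 and Ndufa4, where 2.07% of all genes were called in either direction. In the established cohort the count fell to 2, Cox6a2 and Cox8b, without the 3 muscle-rich libraries, a share close to the 1.72% of all genes called in either direction. Library totals alone left 6 early calls (3.31% of all genes). Leaving out single early libraries gave 10 (without WT replicate 4, 3.46% of all genes) to 59 (without WT replicate 7, 13.9%).

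By complex, established slopes were called for 28 of 45 tested members of complex I, 3 of 4 of complex II, 6 of 9 of complex III, 10 of 19 of complex IV and 14 of 21 of complex V, and early slopes for 8, 2, 4, 5 and 5 members. By genome, 58 of 85 nuclear and 3 of 13 mitochondrial members were called established, and 21 of 84 and 3 of 13 early, though the median slopes were alike (0.12 and 0.12 established, 0.08 and 0.08 early). The called mitochondrial members were mt-Nd4, mt-Nd5 and mt-Cytb early and mt-Nd1, mt-Nd2 and mt-Nd4 established. Below the muscle isoforms stood Ndufa4, which its symbol places in complex I although it is now known as a subunit of complex IV (0.19 ± 0.04 early and 0.25 ± 0.04 established), Atp5mc1, one of the genes for the c-ring of ATP synthase (0.21 ± 0.03 and 0.19 ± 0.03), and Cox5a (0.16 ± 0.03 and 0.20 ± 0.03). Among the established calls, Cox7b of complex IV had 0.20 ± 0.04, Uqcrq of complex III had 0.19 ± 0.03 and Ndufa5 of complex I 0.19 ± 0.03. At the lower end were Cox4i2 (-0.08 ± 0.07), mt-Nd3 (-0.07 ± 0.05) and Ndufb1 (-0.05) early, and Ndufa4l2 (-0.07), Cox6b2 (-0.04) and Cox6a1 (-0.01 ± 0.03) established, none of them called.

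**Figure D4:**
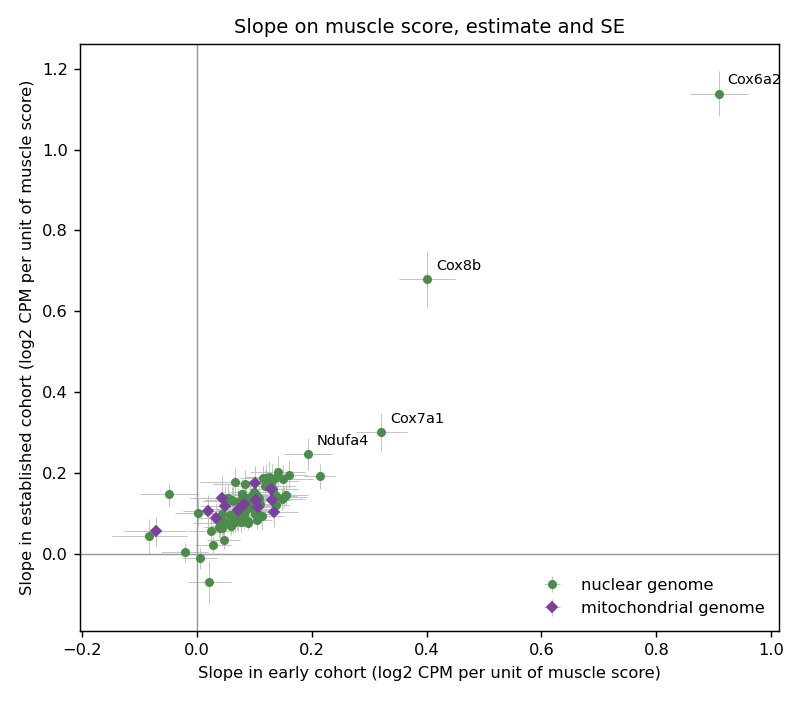
Slope of log2 CPM on the muscle score for each member tested in both cohorts, early on the horizontal and established on the vertical axis, with SE bars; circles are nuclear and diamonds mitochondrial members. Cox6a2 stands at 0.91 and 1.14, Cox8b at 0.40 and 0.68, and most other members lie between 0 and 0.25.

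Complex IV has paired isoforms, of which Cox6a2, Cox7a1 and Cox8b are the forms of heart and skeletal muscle and Cox6a1, Cox7a2 and Cox8a their partners in other tissues. Cox6a2 had 0.266, 2.98 and 24.8 CPM in early WT, 2.48, 12 and 32.4 in early Tg, 0.181, 4.33 and 63.8 in established WT and 0.201, 0.697 and 32.2 in established Tg. Cox6a1 had 31.1, 36.8 and 48.0 CPM in early WT, 27.4, 38.4 and 47.8 in early Tg, 23.6, 28.8 and 32.6 in established WT and 16.9, 23.3 and 30.9 in established Tg. The muscle form thus varied far more among mice of the same genotype than its partner did. Per kb of principal transcript, Cox6a2 made up between 0.533% and 62.2% of the pair over the 28 libraries (median 12.1%), the highest share being that of established WT replicate 6. Cox7a1 made up 10.9% to 58.4% of its pair with Cox7a2 (median 32.1%).

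Each isoform was correlated with the muscle score within each cohort, 16 correlations in all, with p from 100000 permutations adjusted over the 16. Pearson's r for Cox6a2 was 0.983 over 15 early libraries (Spearman's rho 0.986, permutation p = 1e-05 for both, the smallest they can give, adjusted p = 4e-05) and 0.979 over 13 established libraries (rho 0.973, permutation p = 1e-05, adjusted p = 4e-05). Cox8b gave r of 0.912 and 0.929 (rho 0.954 and 0.912, adjusted permutation p = 4e-05 for r in both) and Cox7a1 0.862 and 0.870 (rho 0.918 and 0.830, adjusted permutation p = 6.4e-05 and 0.00016 for r). Without the 2 libraries farthest from the median score, r was 0.975 and 0.962 for Cox6a2, 0.846 and 0.874 for Cox8b and 0.895 and 0.760 for Cox7a1. Within genotypes, r lay between 0.951 and 0.993 for Cox6a2, between 0.864 and 0.952 for Cox8b and between 0.701 and 0.944 for Cox7a1. The score and the isoforms come from the same libraries and share their depth and scaling.

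The partners had lower correlations with the score. Cox6a1 had r of 0.03 early (adjusted permutation p = 0.925) and -0.03 established (adjusted permutation p = 0.925), and Cox8a 0.29 and 0.30 (adjusted permutation p = 0.431 and 0.50). The established values turn on WT replicates 5 and 6: without them r was -0.52 for Cox6a1 and -0.60 for Cox8a. Within genotypes Cox6a1 had 0.42 in established WT and -0.54 in established Tg, and Cox8a 0.51 and -0.72. Early, Cox8a also changed sign, to -0.13, without the 2 farthest libraries. Cox7a2 had 0.23 early (adjusted permutation p = 0.50) and 0.72 established (adjusted permutation p = 0.0096, but 0.0757 for rho), which dropped to 0.51 without established WT replicates 5 and 6. Cox4i1 had 0.68 early (adjusted permutation p = 0.0113, r 0.61 without the 2 farthest libraries) and 0.62 established (adjusted permutation p = 0.0448), and the latter rests on the same WT replicates, since r was 0.29 without them. Cox4i2 had -0.35 and 0.24 (adjusted permutation p = 0.314 and 0.504).

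**Figure D5:**
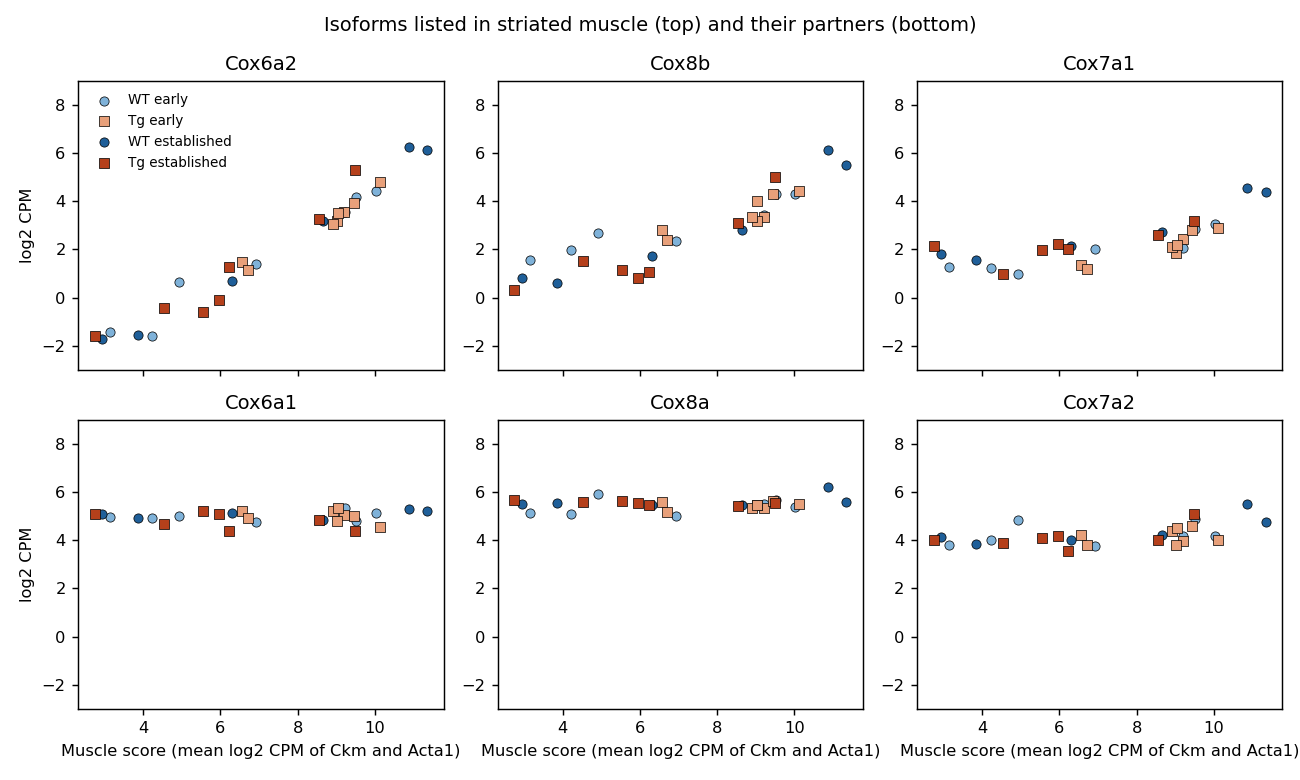
Log2 CPM of the muscle isoforms Cox6a2, Cox8b and Cox7a1 (top) and their partners Cox6a1, Cox8a and Cox7a2 (bottom) against the muscle score of each library, scaled within each cohort; colour and shape mark genotype and cohort. Cox6a2 rises with the score in both cohorts (r 0.983 and 0.979), and Cox6a1 has r of 0.03 and -0.03.

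The promoters of Cox6a1, Cox7a1, Cox7a2, Cox8a and Cox8b were compared for 3 short motifs in RefSeq windows (GRCm38.p6). Each window runs from 250 bases before to 50 after the start site, and 57 windows matched 55 of the 88 nuclear symbols. Cox6a2, Cox4i1 and Cox4i2 had no window in this set. Sought on both strands were the palindromic site of NRF1, an activator of nuclear respiratory genes, CCGGAAG, the core bound by GABP and other ETS factors, and CAGCTG, an E-box of the kind bound by myogenic factors. The first occurred in 3 of 57 member windows (5.26%) and in 0.971% of all 32851 windows, the second in 11 (19.3%) and 8.86%, and the third in 5 (8.77%) and 16.3%. Shown are the muscle form Cox8b, with 2 E-boxes, its partner Cox8a, with 2 GABP motifs of which 1 lies past the stretch printed, and Cox6a1, with 1 NRF1 and 1 GABP motif. Each stretch runs from 180 bases before to 30 after the start site, with motifs in capitals.
Cox8b, chr7:140900417-140900626, minus strand: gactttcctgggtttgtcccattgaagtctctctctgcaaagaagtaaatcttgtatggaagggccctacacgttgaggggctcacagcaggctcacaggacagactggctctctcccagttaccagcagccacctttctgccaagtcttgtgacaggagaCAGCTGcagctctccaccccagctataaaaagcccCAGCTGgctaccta
Cox8a, chr19:7217587-7217796, minus strand: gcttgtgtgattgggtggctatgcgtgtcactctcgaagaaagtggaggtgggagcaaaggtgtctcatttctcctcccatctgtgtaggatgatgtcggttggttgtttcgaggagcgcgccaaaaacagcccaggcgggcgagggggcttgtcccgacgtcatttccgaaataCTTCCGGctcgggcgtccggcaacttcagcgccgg
Cox6a1, chr5:115348929-115349138, minus strand: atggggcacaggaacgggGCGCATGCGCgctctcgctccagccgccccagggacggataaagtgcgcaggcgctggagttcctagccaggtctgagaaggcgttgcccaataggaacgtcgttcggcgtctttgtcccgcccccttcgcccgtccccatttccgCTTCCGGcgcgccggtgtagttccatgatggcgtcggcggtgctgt
The windows of Cox7a1 and Cox7a2 held none of the 3 motifs. A match describes these letters and is no evidence of binding.

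Other genes of oxidative metabolism, grouped by role in lists that were drawn up with results of these data known, also had positive muscle slopes. In the established cohort, beside 5.67% of all genes, positive slopes were called for 9 of 13 citric acid cycle genes, 6 of 12 fatty acid oxidation genes, 4 of 5 adenine nucleotide carriers and porins, 3 of 3 genes that the symbol rule leaves out (the electron carrier Cycs and the subunits Cyc1 and Ndufab1), 3 of 17 regulators of mitochondrial biogenesis, 1 of 47 assembly factors and 13 of 78 mitochondrial ribosomal proteins. The median slope was 0.10 for the citric acid cycle, 0.04 for assembly factors and 0.05 for mitochondrial ribosomal proteins, against 0.12 for the members. Examples were Cpt1b, the muscle form of carnitine palmitoyltransferase (0.29 ± 0.04, adjusted p = 8.02e-05), Idh3a (0.21 ± 0.02) and Ppargc1a, a coactivator of mitochondrial biogenesis (0.23 ± 0.05, adjusted p = 0.0115). Early, the corresponding counts were 5, 1, 2, 2, 1, 0 and 3.

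Between genotypes in the established cohort, the median log2 fold change was -0.36 for the citric acid cycle genes, -0.08 for the assembly factors, -0.10 for the mitochondrial ribosomal proteins and 0.04 for the biogenesis regulators. Ogdh, of the 2-oxoglutarate dehydrogenase complex, was called lower, with 161 ± 33.9 CPM in WT (SD, n = 6) and 111 ± 17.5 in Tg (n = 7; -0.53 ± 0.14, adjusted p = 0.0366). Polg, the polymerase that copies mitochondrial DNA, was called higher, with 54.5 ± 6.52 and 76.3 ± 6.68 CPM (0.49 ± 0.09, adjusted p = 0.0129), and so was Cox20, an assembly factor that acts on newly made mt-Co2 protein, with 17.3 ± 1.65 and 24.2 ± 4.49 CPM (0.49 ± 0.12, adjusted p = 0.0304). Polg2, the accessory subunit of the same polymerase, named after its value was seen, was also called higher (0.47 ± 0.13, adjusted p = 0.0422). In all, 1 of 13 citric acid cycle genes was lower, 2 of 17 regulators and 1 of 47 assembly factors were higher, and none was called among the other 4 lists, counts to be read beside the 6.51% of all genes called. Early, edgeR called no gene of these lists.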

How the data were processed

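Per the labels and the methods of the study, the authors aligned libraries from rRNA-depleted RNA of tail tendon fascicles with STAR to GRCm39 (GENCODE M26) and deposited raw read counts per gene from featureCounts, 1 table per mouse. How strand and reads with several alignments were handled, and the versions, are not given in the sources used here. Gene names came from a later GENCODE release, which named 25505 of 25719 identifiers. WT mice came from the same breeding as the transgenic mice. The labels do not tie single animals to litters, so litter could not be used as a block. The tests took the mice as independent and set differences against the spread between them, so shared litters were not accounted for.

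Counts were tested with edgeR 4.0.16 in R 4.3.3 (TMM factors, filterByExpr with a minimum count of 10 and a minimum total of 15, glmQLFit and glmQLFTest), within each cohort for genotype, within each cohort for the muscle score with genotype in the fit, and over all 28 libraries for the interaction. The SE is the log2 fold change divided by the square root of F. Adjusted p-values are Benjamini-Hochberg values over all genes tested. CPM levels use TMM factors over all libraries, and log2 CPM a prior count of 2. DESeq2 1.42.0, limma 3.58.1, other scalings and filters, muscle covariates, a replicate block, females only and leaving out each library were alternatives, and library totals alone and leaving out the 3 libraries of highest muscle score were added after seeing the data. Permutation tests of the correlations used numpy 2.4.6 with ranks from scipy 1.17.1, the exact permutation test of the muscle score used R, and figures matplotlib 3.10.9. Scripts were tested on simulated data.

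Replicate numbers in the titles were checked for pairing. In the early cohort deviations of same-numbered WT and Tg mice from their group means correlated at 0.145 to 0.405 in all 7 pairs. The early numbers were therefore treated as pairing the samples in an alternative fit, the replicate block. The main fits, the test of the muscle score and the correlations did not use the numbers. Mice of different numbers were not compared, so the check cannot settle whether the numbers mark pairs. Early Tg replicate 8 had no WT partner. The members, the gene lists and the tests were chosen with earlier results of these data known. Named genes were the mitochondrial subunits, the complex IV isoform pairs, a set of core subunits, called members (the 6 of lowest p per direction where there were over 12), the member of lowest p per complex, the 5 highest and lowest slopes, and members that failed the filter. A few others were added as examples after their values were seen.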

Additional observations from a re-analysis of the deposited data

Results flagged for a closer look

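In 100 checks of 1 measure within 1 group, 5 values stood apart from the rest of their group. The rule is set to flag about 1 group in 20 by chance. The checks share libraries, however, and all 5 values came from established WT replicate 6 or established Tg replicate 5. Their number therefore cannot say whether chance gave them. In established WT, replicate 6 had 50.1 CPM of mt-Co3 (the other 5 had 11.1 to 25.6) and 61.4 CPM of Cox8a (the others 36.5 to 39.7). In established Tg, replicate 5 had 28.2 CPM of Cox7a2 (the other 6 had 9.70 to 14.9), 26.1 CPM of Cox8b (0.957 to 6.96) and 32.2 CPM of Cox6a2 (0.201 to 7.73). These mice had muscle scores of 10.9 and 9.49, and the part of muscle RNA in each value was not tested.

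The difference between genotypes differed between the cohorts for 2 members by the interaction term, mt-Nd5 (-1.07, established minus early) and Sdhc (-0.61). Stage, age and sex cannot be told apart in it.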

How the results depend on the processing

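Named genes were followed singly through the alternatives, and among these no called value changed sign. Most other members with a called muscle slope were not followed singly. In the established genotype comparison, edgeR called 0 members (6.51% of all genes called), DESeq2 11 (11.7%) and limma voom 2 (12.5%). The fit of all 28 libraries called 11 (10.3%) and library totals alone 2 (47.6%), and leaving out single libraries gave 0 to 8. The 8, all mitochondrial, came without WT replicate 3 (5.06% of all genes called), and 1 came without Tg replicate 7 (7.43%). Of the interaction, with 2 calls, DESeq2 gave 7 (10.1% of all genes called), no filter 1 (3.97%) and the replicate block 5 (12.4%). Either muscle covariate gave 0 (7.05% and 7.5%), leaving out the 2 established males 0 (4.5%) and leaving out the 3 muscle-rich libraries 0 (3.65%). Library totals gave 1 (a positive nuclear member and neither of the 2, with 50.3% of all genes called). Leaving out single libraries gave 0 to 9, the latter with 7.24% of all genes. Of the early muscle slope, with 24 calls, limma voom gave 66 (22.6% of all genes called), the replicate block 5 (2.07%) and library totals 6 (3.31%). Leaving out single libraries gave 10 (without WT replicate 4, 3.46%) to 59 (without WT replicate 7, 13.9%). Of the established muscle slope, with 61 calls, the replicate block gave 19 (1.31% of all genes called) and leaving out the 3 muscle-rich libraries 2 (1.72%). Leaving out single libraries gave 37 (without WT replicate 3, 4.59%) to 71 (without Tg replicate 4, 5.47%). The causes were not tested. In the established cohort same-numbered mice correlated at -0.223 to 0.690, so the numbers were not taken as pairing, and the block left 0 members called between genotypes, with a median of -0.38. The early block also left 0. The correlation of Cox4i1 with the score lost its call under the wide score. The 6 mitochondrial genes with few reads are the least precise.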
